A study of Mus musculus with 15 samples.

Results

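The genes described here are 8 transcription factor genes that set the fate of effector CD8+ T cells, namely Tbx21, Eomes, Prdm1, Zeb2, Runx1, Runx3, Bhlhe40 and Bcl6. They were chosen by name, and their symbols were matched to the GENCODE M21 identifiers of the count tables. All 8 were among the 55536 annotated genes counted, and 8 of 8 passed the filter on low counts that left 24262 genes for testing. Their 56 annotated transcripts and 75 splicing, start or end events were read from the transcript table and the splicing table of the same libraries.

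Poly(A) RNA was sequenced from CD8+ T cells of OT-1 Tg C57BL/6J mice, whose T cell receptor recognises an ovalbumin peptide. Cells of these mice were transferred into C57BL6/J recipients, which were then given the ovalbumin peptide with a rat IgG control (Ag, 5 libraries) or with agonist anti-OX40 and anti-41BB antibodies (Ag+Costim, 5 libraries). Transferred cells were sorted from spleen and lymph nodes on day 4 by the labels, while the study's methods give a shorter time in places. The labels also list 5 libraries of naive OT-1 Tg cells, whose counts were not analysed here, so no value below is a change from the naive state. For its mice as a whole the study gives both sexes and an age range, which differs between its methods and its reporting summary. Ages and sexes of the animals behind each library were not given in the sources used here. The methods describe donors on a Rag1 or Rag2 deficient background. The study describes the libraries of a group as individual biological replicates and counts as many mice as libraries, and the labels tie no library to an animal.

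The 8 factors form the control circuit of the effector and memory decision in CD8+ T cells. T-bet (Tbx21) and Eomes are related T-box activators of cytotoxic genes, Blimp-1 (Prdm1) and Zeb2 drive terminal effector differentiation, and Bcl6 is a repressor that opposes Blimp-1 and favours memory precursors. Runx3 sets the CD8 lineage and opens effector genes, Runx1 is its relative of immature and resting T cells, and Bhlhe40 is a repressor induced by antigen receptor signals.

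Runx1 and Runx3 each have a distal and a proximal start, which give proteins with different first residues. The first 30 coding bases of the main transcript of each start are shown, since the share of each start is compared later, and capitals mark the start codon.
Runx3-201, distal start: ATGgcttccaacagcatctttgactccttc
Runx3-202, proximal start: ATGcgtattcccgtagacccgagcaccagc
Runx1-201, distal start: ATGgcttcagacagcatttttgagtcattt
Runx1-202, proximal start: ATGcgtatccccgtagatgccagcacgagc
These bases lie on mm10 at chr4:135121106-135121135 and chr4:135152772-135152801 on the plus strand and at chr16:92825617-92825646 and chr16:92695724-92695753 on the minus strand. RefSeq promoters (GRCm38.p6, 250 bases before to 50 after a start) of both distal starts also held the letters ACCACA, the complement of the RUNX motif TGTGGT, a pair of times with 2 bases between. This spacing was looked for after single matches had been seen. It occurred on either strand in 7 of 32851 such windows (0.0213%), and capitals mark the letters in each.
Runx3, distal start: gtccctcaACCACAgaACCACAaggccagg
Runx1, distal start: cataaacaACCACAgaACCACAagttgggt
The Runx3 window is chr4:135120503-135120532 on the plus strand, and its first match began 134 bases before the start. The Runx1 window is chr16:92826025-92826054 on the minus strand, and its first match began 28 bases after the start. Both distances are from RefSeq starts, and that of Runx1 lies downstream of the start of Runx1-201 at chr16:92826149. A match of letters is not a measured binding site.

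Libraries held between 59.6 and 639.1 M estimated counts, with Ag replicate 3 the smallest. Genes detected numbered 48058, 21779, 51778, 40441 and 20714 in Ag replicates 1 to 5, and between 28727 and 30340 in Ag+Costim. Genes of CD8 T cells were high in all 10, and their 6 markers summed to between 3122 and 6140 CPM (counts scaled to a common library total with TMM factors) in Ag and between 4132 and 5039 CPM in Ag+Costim. Ag replicate 3 had the highest sums of dendritic (200.7 CPM), NK (20.07 CPM) and erythroid (662.2 CPM) markers, against at most 45.53, 2.216 and 24.28 CPM in Ag+Costim. Ag replicates 1 and 4 had the lowest sums of 5 genes of dividing cells, 358.2 and 378.4 CPM, against 1573 to 2675 CPM in the other Ag libraries and 2499 to 3052 CPM in Ag+Costim. In bulk RNA, fewer cells of a type and less RNA per cell cannot be told apart.

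The question was whether costimulation changed the level, the transcript choice or the balance of these factors beyond the effect of antigen. With antigen alone, Tbx21, Eomes, Prdm1 and Bhlhe40 ranged from low to high between libraries, and with costimulation each varied less. Tbx21 and Bhlhe40 then lay in a narrow, high range. Eomes spanned 53.4 to 102 CPM and Prdm1 10.97 to 21.8 CPM there, and both overlapped with Ag. On the log2 scale, 96.2% of all genes tested had a larger SD in Ag than in Ag+Costim. Log2 fold changes were above 0 for Tbx21, Eomes, Prdm1, Bhlhe40 and Runx3 and below 0 for Runx1 and Bcl6. Zeb2 had nearly equal means. By edgeR's quasi-likelihood test with Benjamini-Hochberg (BH) adjustment, 0 of 8 passed 0.05, as did 0 of the 24262 genes tested (0%). At an unadjusted p under 0.05, 1 of 8 was higher and 0 lower, against 7.89% and 10.7% of all genes.

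**Figure D1:**
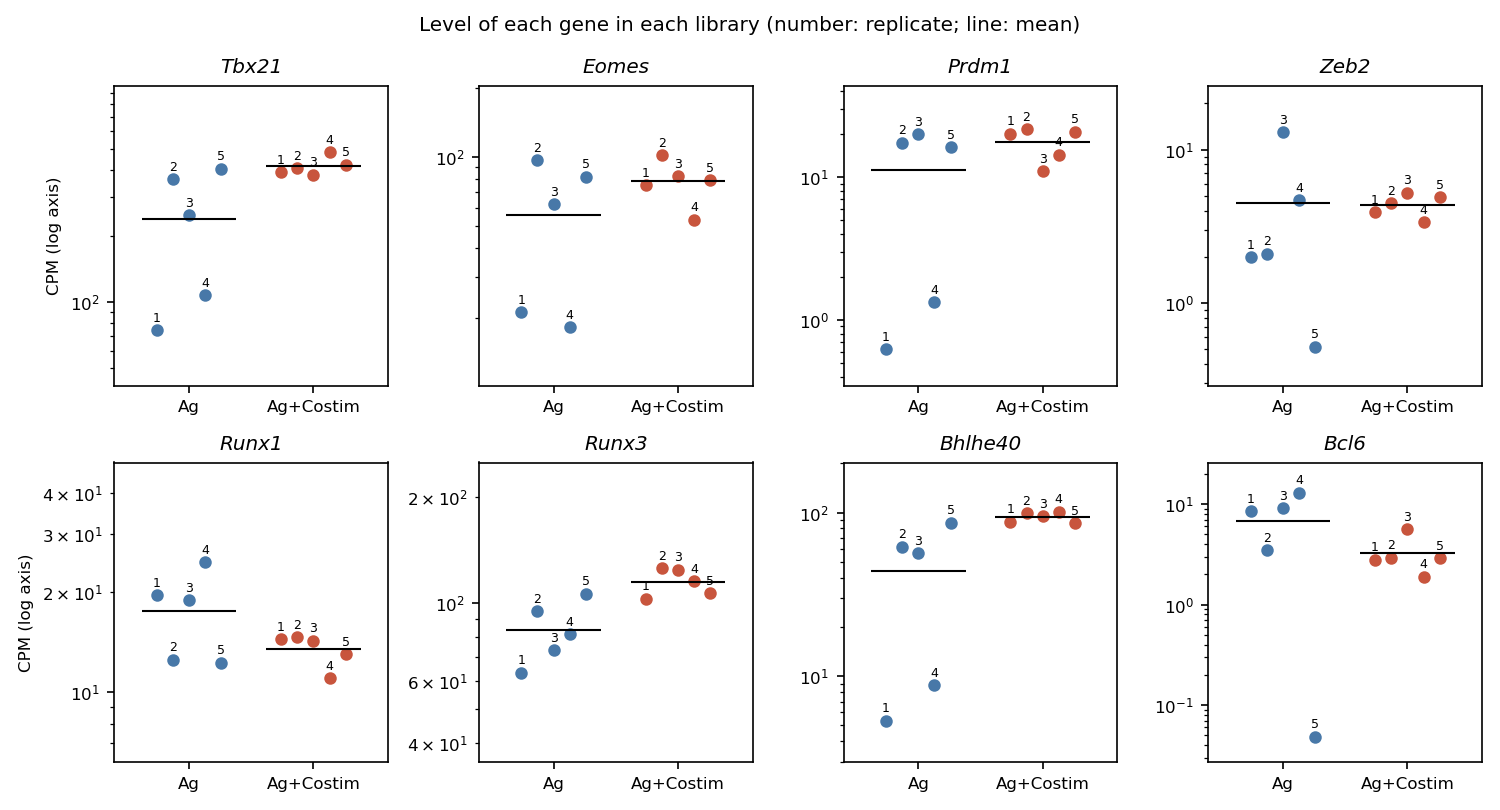
Level of each of the 8 genes in CPM (log axis) in the 5 Ag and 5 Ag+Costim libraries; a point is 1 library, its number is the replicate and a line is the group mean. The 5 Ag+Costim points of each gene sit closer together than its Ag points, and Ag replicates 1 and 4 are the lowest points for Tbx21, Eomes, Prdm1 and Bhlhe40.

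Tbx21 (ENSMUSG00000001444, mm10 chr11:97098071-97115331, minus strand) encodes T-bet, the activator of Ifng and cytotoxic genes. Its level in Ag replicates 1 to 5 was 74.7, 364, 249.5, 107 and 405 CPM, and in Ag+Costim it was 392, 409, 380.5, 483 and 423.5 CPM. The group means were 240.1 ± 148 and 418 ± 40.2 CPM (SD, n = 5 each). Ag replicate 5 alone reached into the Ag+Costim range, and the other 4 Ag libraries lay below all Ag+Costim libraries. The log2 fold change was 0.80 ± 0.41 (SE; edgeR BH 0.294).

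Eomes (chr9:118478212-118486132, plus strand) encodes the T-box factor that supports memory and cytotoxic programmes. It measured 21.1, 96.5, 62.2, 18.1 and 82.0 CPM in Ag replicates 1 to 5, and 75.5, 102, 82.3, 53.4 and 79.4 CPM in Ag+Costim. Ag replicates 1 and 4 lay below every Ag+Costim library, and the other 3 lay within their range. Its log2 fold change was 0.49 ± 0.44 (SE; edgeR BH 0.491). An antisense gene, Gm33460, overlaps Eomes at 2.88 CPM for Ag and 3.18 CPM for Ag+Costim, and the library kit does not mark strand.

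Prdm1 (chr10:44437177-44528501, minus strand) encodes Blimp-1, a repressor that drives terminal differentiation. Ag replicates 1 to 5 held 0.620, 17.5, 20.1, 1.32 and 16.3 CPM, and Ag+Costim replicates held 20.2, 21.8, 10.97, 14.4 and 20.8 CPM. Ag replicates 1 and 4 were the lowest of all 10, and the remaining Ag libraries fell inside the Ag+Costim range. The highest Ag library was 32.4 times the lowest, against 1.99 times in Ag+Costim. Between groups, the log2 fold change was 0.66 ± 0.77 (SE; edgeR BH 0.593).

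Zeb2 (chr2:44983632-45117395, minus strand) encodes a zinc finger repressor that acts with T-bet in terminal effector cells. It was near 4.46 ± 4.999 CPM for Ag and 4.38 ± 0.758 CPM for Ag+Costim (SD, n = 5 each). Ag replicate 3 alone had 12.99 CPM, and the others had 1.995, 2.098, 4.68 and 0.517 CPM. The 5 Ag+Costim libraries lay between 3.36 and 5.25 CPM. The log2 fold change of -0.02 ± 0.66 (SE; edgeR BH 0.986) became 0.92 without Ag replicate 3 (BH 0.497), the library with the most dendritic, NK and erythroid RNA. Other cell types also use Zeb2, and their part in the 12.99 CPM was not tested.

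Runx3 (chr4:135120652-135177990, plus strand) encodes the factor that keeps Cd4 silent and supports effector genes. It measured 63.3, 94.4, 73.3, 81.4 and 106 CPM in Ag replicates 1 to 5, and 103, 125, 124, 115 and 106 CPM in Ag+Costim. Ag replicate 5 lay within the Ag+Costim range and the other 4 Ag libraries lay below it. Runx3 had the smallest edgeR p of the 8, 0.0151, with a log2 fold change of 0.45 ± 0.16 (SE; BH 0.240).

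Runx1 (chr16:92601466-92826149, minus strand) encodes the relative of Runx3 and had a fold change below 0. Its level was 19.6, 12.5, 18.95, 24.7 and 12.25 CPM in Ag replicates 1 to 5, and 14.4, 14.6, 14.3, 11.02 and 13.0 CPM in Ag+Costim. Ag replicates 1, 3 and 4 exceeded every Ag+Costim library, and replicates 2 and 5 did not. Its log2 fold change was -0.39 ± 0.21 (SE; edgeR BH 0.301).

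Bhlhe40 (chr6:108660629-108666925, plus strand) had the largest positive fold change of the 8. Ag replicates 1 to 5 held 5.35, 62.0, 56.5, 8.83 and 86.6 CPM, and Ag+Costim replicates held 88.1, 98.9, 95.04, 101 and 86.4 CPM. Ag replicate 5 just passed the lowest Ag+Costim library, and the other 4 Ag libraries lay below all of them. For this gene the log2 fold change was 1.10 ± 0.63 (SE; edgeR BH 0.317), and the antisense gene 0610040F04Rik that overlaps it had 0.657 and 0.189 CPM.

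Bcl6 (chr16:23965052-23988852, minus strand) was low in both groups. It was at 8.55, 3.48, 9.07, 12.95 and 0.0485 CPM in Ag replicates 1 to 5, and 2.80, 2.93, 5.60, 1.902 and 2.90 CPM in Ag+Costim. The Ag values spanned the whole Ag+Costim range, with 3 libraries above it and replicate 5, at 18 counts, below it. The log2 fold change was -1.08 ± 0.88 (SE; edgeR BH 0.447).

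Scaled with TMM factors, 0 of 8 genes had groups that did not overlap, against 5.6% of all genes tested. Scaled by total counts, 2 of 8 did not overlap and were higher in Ag+Costim (Tbx21 and Bhlhe40), against 2.76% of all genes. The median log2 fold change of the 8 was 0.47 with TMM factors and 0.28 with total counts, and that of all genes tested was -0.32 and -0.65. Among the genes of at least 10 CPM, the median was 0.24 with TMM factors and 0.00 with total counts. Under the 4 scalings run, none of the 8 fold changes changed sign.

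The count of genes called depended on the model. DESeq2 called 1 of 8, Runx3 (log2 fold change 0.34, adjusted p = 0.0417), against 1.79% of 43379 genes called higher and 12.5% called lower. Limma voom with library quality weights called 7 of 8 at BH 0.05, all but Zeb2, against 25.7% of genes called higher and 26.3% called lower. It gave log2 fold changes of 3.94 for Prdm1, 3.44 for Bhlhe40, 1.96 for Tbx21, 1.85 for Eomes and 0.62 for Runx3, and of -0.66 for Runx1 and -1.62 for Bcl6. In that fit Ag replicates 2 and 5 had weights of 0.0986 and 0.0656, and Ag replicates 1, 3 and 4 had 1.42, 0.508 and 2.00. The Ag mean thus rested little on replicates 2 and 5, in which Tbx21, Eomes, Prdm1 and Bhlhe40 were high.

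**Figure D2:**
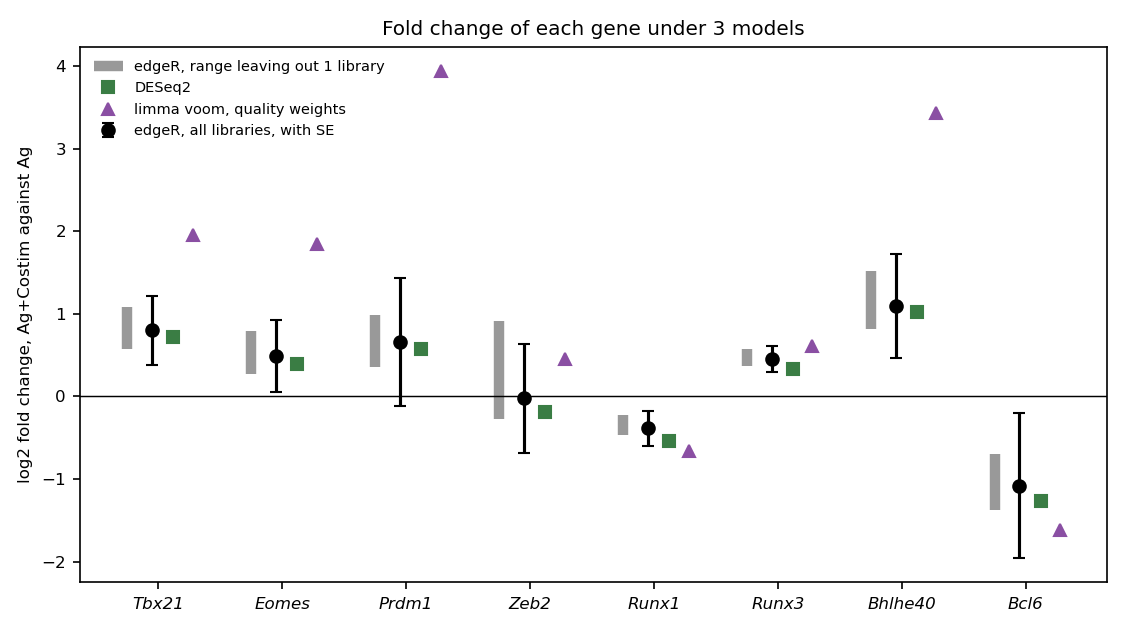
Log2 fold change of each gene, Ag+Costim against Ag, by edgeR (black, with SE), DESeq2 (green) and limma voom with quality weights (purple); grey bars span the edgeR values with each library left out in turn. Weighted voom stands far above the other models for Prdm1 and Bhlhe40, while the grey bar of Zeb2 crosses 0.

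The spread between libraries differed between the groups. On the log2 scale, 8 of 8 genes had a larger SD in Ag than in Ag+Costim. Of all genes tested, 96.2% did. The SD of Tbx21 was 1.08 for Ag and 0.13 for Ag+Costim, and that of Bhlhe40 was 1.78 and 0.10. Runx3 varied least in Ag, with an SD of 0.29 there and 0.13 in Ag+Costim.

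Ag replicates 1 and 4 were the lowest libraries of all 10 for 4 of the 8 genes (Tbx21, Eomes, Prdm1 and Bhlhe40) and the highest for 1 (Runx1). Of all genes tested, 19.2% had these libraries lowest and 9.41% had them highest, and among genes of at least 10 CPM the shares were 39.6% and 13.3%. The same libraries had the lowest sums of dividing cell genes, given earlier, and the part of cell division in the levels of the 4 genes was not tested.

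Per length of transcript, as TPM (transcript counts divided by length and scaled to a common total), Tbx21 was the most abundant factor in both groups, at 233 to 291 TPM in Ag+Costim and 66.0 to 207.5 TPM in Ag. In Ag+Costim, Bhlhe40 (42.9 to 49.0 TPM), Runx3 (41.6 to 50.9 TPM) and Eomes (23.7 to 46.8 TPM) followed, and their ranges overlapped. Prdm1 (3.84 to 7.97 TPM) and Runx1 (3.89 to 6.60 TPM) came next and overlapped with each other. Zeb2 (1.10 to 1.91 TPM) and Bcl6 (0.805 to 2.41 TPM) were lowest and overlapped. In Ag the order after Tbx21 was Runx3, Eomes, Bhlhe40, Runx1, Prdm1, Bcl6 and Zeb2 by mean. There the ranges of neighbours in this order overlapped, except for Tbx21 and Runx3.

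Ratios within a library compare a pair of factors without any scaling. The log2 ratio of Tbx21 to Eomes counts was 2.12 ± 0.31 for Ag and 2.44 ± 0.44 for Ag+Costim (SD, n = 5 each), a difference of 0.32 (two-sided exact permutation test, p = 0.230) that was 0.13 without Ag+Costim replicate 4. That of Runx3 to Runx1 was 2.28 ± 0.68 and 3.09 ± 0.20, a difference of 0.82 (exact p = 0.0635). In the Runx pair, Ag replicates 2 and 5, at 2.91 and 3.11, lay within the Ag+Costim range of 2.83 to 3.38, and replicates 1, 3 and 4, at 1.69, 1.95 and 1.72, lay below it. Counted per kilobase of transcript, the difference was 0.86 with an exact p of 0.0238, and without Ag replicate 5 it was 1.02 with an exact p of 0.0159.

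The log2 ratio of Prdm1 to Bcl6, the opposed repressors, ranged from -3.78 (Ag replicate 1) to 8.36 (Ag replicate 5) in Ag, and from 0.97 to 2.92 in Ag+Costim. The difference of the means was 1.54 (exact permutation p = 0.460), and without Ag replicate 5 it was 3.39 (exact p = 0.0317). Without Ag replicate 1 or 4 the difference was 0.36 or 0.48. That of Zeb2 to its relative Zeb1 was -2.92 ± 1.66 for Ag and -1.99 ± 0.23 for Ag+Costim, a difference of 0.94 (exact p = 0.286). Without Ag replicate 3 the last difference was 1.58, and its p of 0.00794 was the smallest that 4 against 5 libraries allow. Over the 6 ratios and start shares tested as 1 family, the BH-adjusted values with all libraries were 0.381 or higher.

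**Figure D3:**
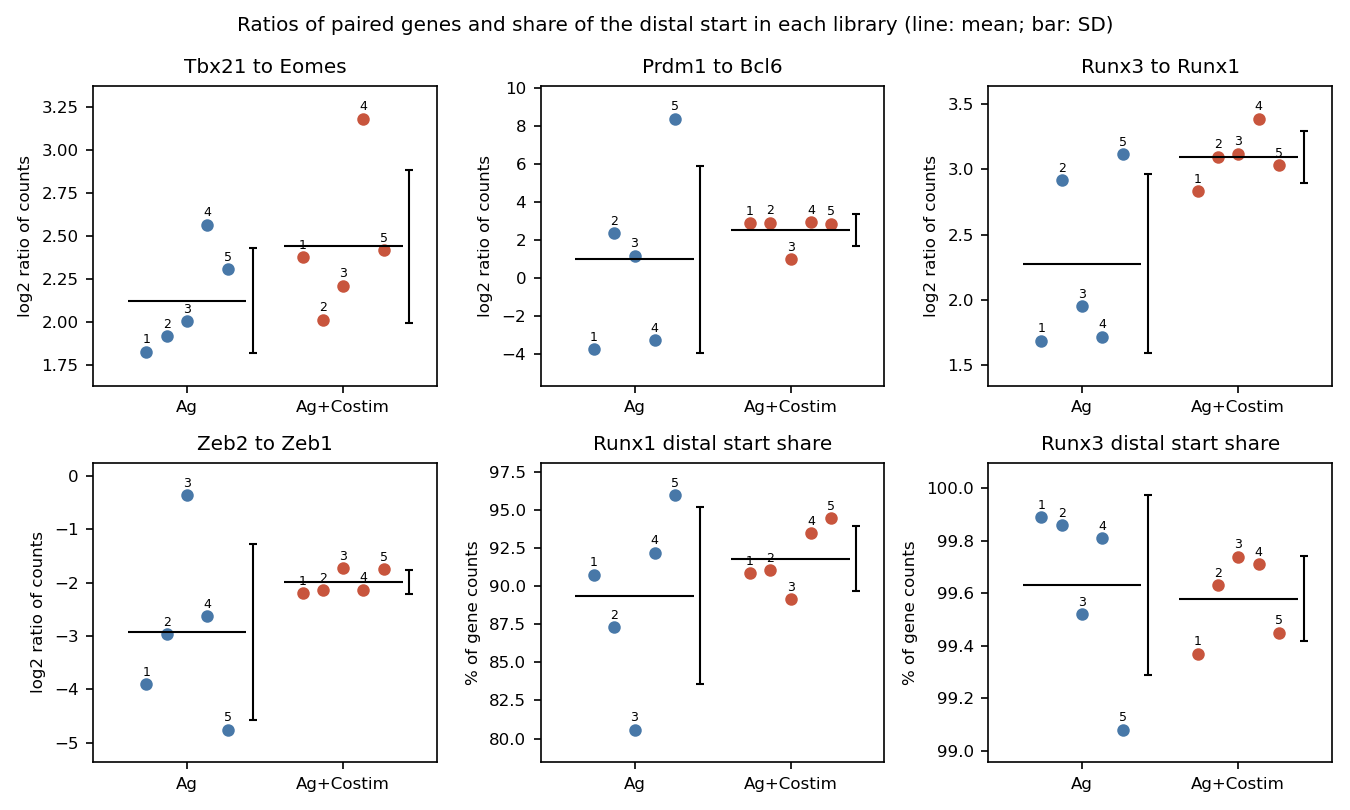
Log2 ratio of counts of 4 pairs of genes, and the percent of Runx1 and Runx3 counts on transcripts from the distal start, in each library (number: replicate; line: mean; bar: SD). The Prdm1 to Bcl6 ratio spans -3.78 to 8.36 in Ag, whereas 4 of the 5 Ag+Costim libraries lie between 2.84 and 2.92.

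Both Runx genes were transcribed mainly from the distal start whose coding bases are shown earlier. Distal transcripts held 99.63% ± 0.341 of Runx3 counts with antigen alone and 99.58% ± 0.164 with costimulation (SD, n = 5 each; exact permutation p = 0.778). For Runx1 they held 89.4% ± 5.80 and 91.8% ± 2.15, a difference of 2.44 percentage points (exact p = 0.452) that was 0.248 without Ag replicate 3 and 4.09 without Ag replicate 5. Ag replicate 3 was lowest for Runx1, at 80.6%, and the groups overlapped.

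Transcript usage was tested for the 7 genes with more than 1 transcript after filtering, since Tbx21 has 1 annotated transcript, Tbx21-201. By edgeR's diffSpliceDGE, 0 of 7 were called at a Simes BH under 0.05 with a change of share over 0.1, against 0.297% of 10441 genes. The smallest gene-level p by diffSpliceDGE was 0.0660, for Runx3 (BH 0.835). With limma's diffSplice the smallest BH was 0.0522, for Zeb2. Runx3-201 (99.6% and 99.6% of counts in Ag and Ag+Costim), Bhlhe40-201 (97.2% and 99.7%), Bcl6-201 (92.8% and 98.8%) and Runx1-201 (82.6% and 86.9%) carried most counts of their genes in both groups.

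Eomes counts fell on Eomes-201 and on Eomes-202, which starts 132 bases further upstream and ends earlier. Eomes-202 held 10.7%, 9.06%, 7.43%, 13.1% and 8.83% of counts in Ag replicates 1 to 5, and 12.6%, 13.9%, 16.8%, 17.3% and 15.2% in Ag+Costim. Ag replicate 4 alone overlapped with Ag+Costim, and the usage test of this transcript gave a BH of 1.0 (diffSpliceDGE). In the splicing table, the upstream start of Eomes (chr9:118478212-118478343) had a PSI, the fraction of transcripts that use a segment, of 0.585 for Ag and 0.796 for Ag+Costim. The upstream start did not pass the limits on events that are given later. Both measures were higher in Ag+Costim by group value, and they come from the same reads. Their sizes differ widely, as Eomes-202, which has this start, held a mean of 9.83% of counts in Ag and 15.2% in Ag+Costim. The cause of this gap was not tested.

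Prdm1-201 held 71.6% ± 8.07 of Prdm1 counts in Ag and 67.5% ± 7.35 in Ag+Costim, and Prdm1-202 held 16.6% ± 14.2 and 30.7% ± 6.70 (SD, n = 5 each). The retained intron transcript Prdm1-203 had 28.6% and 15.9% of counts in Ag replicates 1 and 4, where the gene had only 280 and 428 counts, and at most 5.82% in the other 8 libraries. Prdm1-201 differs from Prdm1-202 by exon 2 (chr10:44456981-44457059, 79 bases) and by its ends. That exon had a PSI of only 0.0566 for Ag and 0.0184 for Ag+Costim. The event lay outside the rule for named events and was picked after its values were seen, since the shares by transcript and the inclusion of the exon differ widely.

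Zeb2 had the most varied transcripts, at 192 to 3058 counts per library. Zeb2-202 took 31.2% of counts in Ag replicate 4 and 0% in the other 4 Ag libraries, and between 25.6% and 78.9% in Ag+Costim. Zeb2-212, with the longer 3' end, took 56.3%, 26.7%, 66.9%, 6.94% and 97.9% in Ag replicates 1 to 5, and between 1.33% and 14.8% in Ag+Costim. Ag replicate 4 alone overlapped with Ag+Costim for both transcripts. Zeb2-214, a shorter coding transcript, took 60.5% and 35.5% in Ag replicates 2 and 4 and 0% in the other 3 Ag libraries, and between 7.43% and 60.6% in Ag+Costim. Its share varied widely in both groups, which overlapped. The gene-level usage p was 0.171 (BH 1.0) with diffSpliceDGE and 0.00128 (BH 0.0522) with limma's diffSplice. The end of Zeb2-202 (chr2:44987123-44987995) had a PSI of 0.628 for Ag and 0.873 for Ag+Costim, and the distal end of Zeb2-212 (chr2:44983632-44987120) had 0.363 and 0.116. Neither passed the limits on events. Zeb2-202 held a mean of 6.2% of counts in Ag and 48.15% in Ag+Costim, below the PSI of its end in both groups. Zeb2-201, which shares this end, held 0% and 4.78%. The cause of this gap was not tested.

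**Figure D4:**
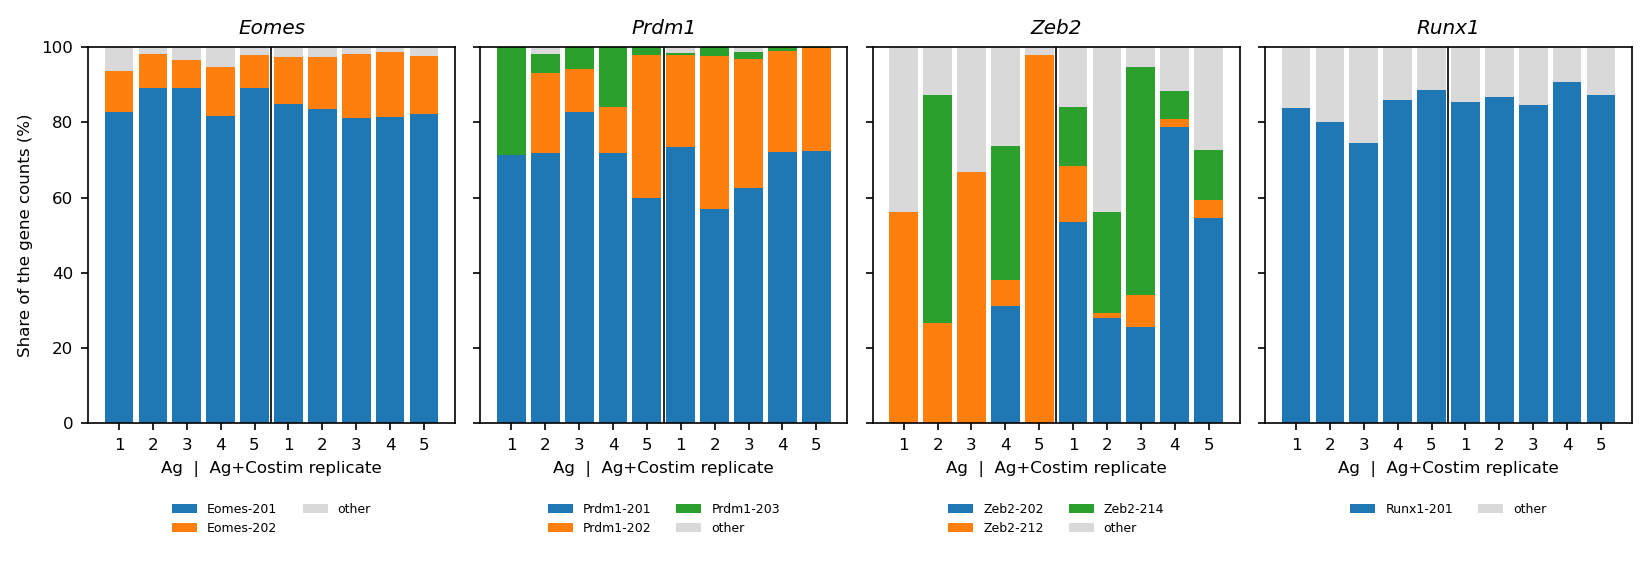
Percent of the counts of Eomes, Prdm1, Zeb2 and Runx1 on each transcript that holds at least 10% in either group, by library (left of the line Ag, right Ag+Costim; grey: all other transcripts). By counts, Runx1 is dominated by 1 transcript in all 10 libraries, and Zeb2 shares differ from library to library.

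Of 75 events of the 8 genes, 1 passed a probability of difference over 0.9 and a PSI difference over 0.05, against 1.05% of 138940 events. The splicing table holds 1 pooled PSI per group, so no test across libraries was possible. The passing event was an alternative 3' end in the last exon of Runx1 (chr16:92603656-92605397, the end of Runx1-202), with a PSI of 0.0805 for Ag and 0.216 for Ag+Costim. At a probability over 0.95, 0 of 75 remained, against 0.607% of all events. By transcript counts, Runx1-202 held 7.93% and 5.61%, the opposite order. The end of Runx1-201 (chr16:92601466-92603655) had a PSI of 0.3645 for Ag and 0.265 for Ag+Costim, while Runx1-201 held 82.6% and 86.9% of counts. The end of Runx1-203 (chr16:92605398-92606124) had 0.556 and 0.520, while Runx1-203 held 0.497% and 0.839%. Both ends lay outside the rule for named events and were picked after their values were seen. The cause of these gaps was not tested.

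Larger PSI differences of Runx1 lay at its proximal start, outside the limit on probability. The upstream part (chr16:92696126-92697328) had 0.0945 for Ag and 0.434 for Ag+Costim, and the downstream part (chr16:92695738-92696125) had 0.906 and 0.568. These fractions divide the proximal starts alone, which held the smaller share of Runx1 counts.

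Most internal exons had a high inclusion in both groups. Of 43 core exons of the 8 genes, 39 had a PSI over 0.9 in both groups. The 4 core exons of Tbx21 lay between 0.9994 and 0.9999, and the 8 of Bcl6 between 0.937 and 0.986. The largest PSI difference was 0.0375 in Runx3 (chr4:135152788-135153056), 0.0541 at the start of Bhlhe40, -0.0325 in Bcl6 (chr16:23978551-23978589) and 0.0801 at the start of Prdm1, each as Ag+Costim minus Ag.

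**Figure D5:**
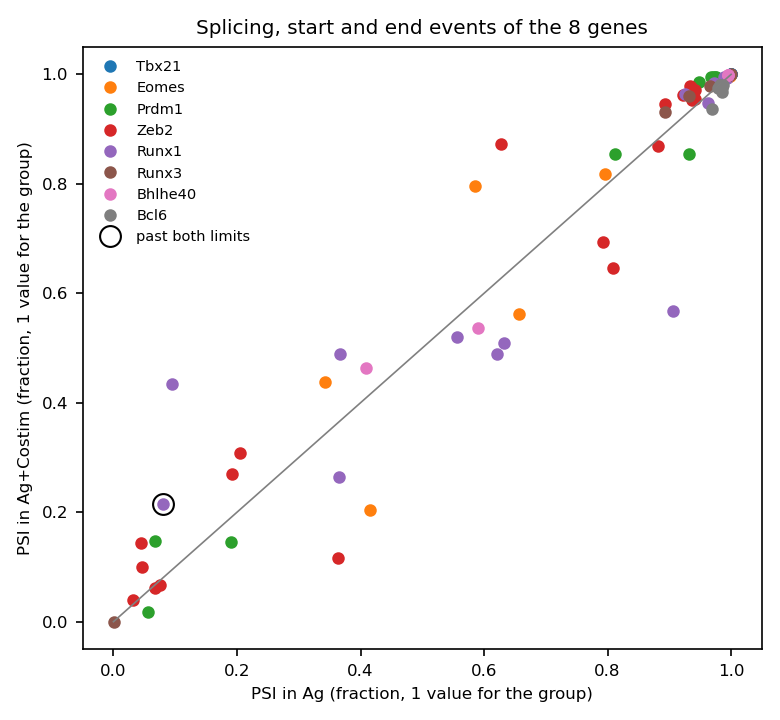
PSI of the 75 events of the 8 genes in Ag (x axis) and Ag+Costim (y axis), each 1 pooled fraction per group; the diagonal marks equal values and the circle marks the Runx1 3' end that passed both limits. Most events lie near 0.9 or above in both groups, and the points farthest from the diagonal are starts and ends of Runx1, Zeb2 and Eomes.

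Genes around these factors were read from lists written with earlier results known. Of 11 relatives and partners, 10 were tested, 0 passed edgeR's BH threshold, and 6 had a log2 fold change above 0. The median was 0.09, against -0.32 over all genes tested and 0.24 over those of at least 10 CPM. Runx2, a relative of Runx1 and Runx3, measured 18.2 ± 7.37 CPM for Ag (SD, n = 5) and had a log2 fold change of 0.79 (edgeR BH 0.234). Cbfb, the shared partner of the Runx proteins, had 0.52 (BH 0.291), Id2, an inhibitor of E proteins, had 0.41 (BH 0.601), and Zeb1 had -0.30 (BH 0.4198).

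Of 15 effector genes that these factors are known to promote, 15 were tested, 0 passed and 8 had a fold change above 0. Their median was 0.11, against the same -0.32 over all genes and 0.24 over genes of at least 10 CPM. Il2rb, the IL-2 and IL-15 receptor chain that T-bet and Eomes promote, had the smallest p of the list. It had 652, 1091, 812, 861 and 1117 CPM in Ag replicates 1 to 5, and between 1228 and 1447 CPM in Ag+Costim, and the groups did not overlap. Its log2 fold change was 0.55 ± 0.18 (SE; edgeR BH 0.227). Cxcr3, a chemokine receptor, had 0.27 (BH 0.527) and Fasl, the death ligand, had 0.24 (BH 0.678). Among those below 0, the chemokine genes Ccl4 and Ccl5 had -1.49 (BH 0.267) and -0.40 (BH 0.525), and Prf1, the pore protein perforin, had -0.20 (BH 0.513).

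Of 15 genes that the factors oppose or that mark naive and memory cells, 12 had a fold change below 0, 0 passed edgeR's BH threshold, and the median was -0.42. Of all genes tested, 62.3% had a fold change below 0 and the median was -0.32, or 0.24 over those of at least 10 CPM. Bach2, a repressor that restrains effector differentiation, had -1.27 (edgeR BH 0.228). Cxcr5, a follicular homing receptor, had -1.05 (BH 0.257) and Ccr7, a lymph node homing receptor, had -0.61 (BH 0.260). Myb had 0.30 (BH 0.397), Klf2 0.17 (BH 0.625) and S1pr1 0.05 (BH 0.8502). DESeq2 called 3 of the 15 lower (Bach2, Cxcr5 and Ccr7) and 0 higher, against 12.5% and 1.79% of all genes. It called 1 gene higher and 0 lower in each of the other two lists, Runx2 (adjusted p = 0.0452) and Il2rb (adjusted p = 0.0116). The 6 markers of B and plasma cells summed to between 643.5 and 1194 CPM for Ag and between 527.7 and 780.0 CPM for Ag+Costim. Cxcr5 and Ccr7 are also used by B cells, and the part of B cell RNA in them was not tested.

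Across the 10 libraries, the genes whose log2 profile lay closest to each factor were named by root mean square distance among the other genes of at least 10 CPM. Racgap1, which acts in cytokinesis, and Rbbp7, a histone chaperone, lay 0.09 and 0.09 from Tbx21, whose own SD over the libraries was 0.88. Orc1, a subunit of the replication origin complex, and Mtfr2 lay 0.18 and 0.18 from Bhlhe40. Setd3 and Irf2bp1 lay 0.07 and 0.07 from Runx3, Chd9 and Btbd9 lay 0.11 and 0.11 from Runx1, and Ly6c1 and Enkd1 lay 0.18 and 0.18 from Eomes. The nearest to Prdm1 were Ttc39c at 0.25 and Osbpl3 at 0.29, those to Bcl6 were Sfi1 at 0.47 and Gm4759 at 0.58, and those to Zeb2 were Eif2ak4 at 0.49 and Dlg1 at 0.53. These distances share libraries and depth and carry no test.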

How the data were processed

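Expression and splicing of 8 transcription factor genes were read from 10 libraries, 5 Ag and 5 Ag+Costim. The 8 genes, the gene lists and the tests were chosen with earlier results of these data known. Groups and replicate numbers were taken from the sample labels, and all libraries were sequenced on lane 4.

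The authors aligned reads to mm10 with HISAT2 2.1.0, sorted them with SAMtools 1.9 and counted with StringTie 2.1.0, as the submitters' processing notes and the methods give. The deposited gene and transcript values are estimated counts that StringTie takes from coverage, with no normalization by the authors, so that totals are not numbers of reads and no counting interval was given. Entries with no gene identifier held between 0.0457% and 0.308% of a library's counts and were left out of totals and tests. The authors ran Whippet (version not given in the sources used here) and deposited PSI as a fraction, pooled to 1 value per group. The same deposited table holds a difference and a probability of difference per event as scores of the authors' comparison. The probability was used only to select events, none of its values is printed, and differences were taken anew from the PSI values.

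Counts were tested with edgeR 4.0.16 in R 4.3.3 (filterByExpr by group, TMM factors, robust quasi-likelihood fit), with DESeq2 1.42.0 and limma 3.58.1 (voom, weighting libraries by quality) as alternatives. The fit was planned for all libraries with counts and held these 10. P-values were adjusted with Benjamini-Hochberg (BH) over all genes tested, at 0.05. Transcript usage was tested with diffSpliceDGE. Ratios used a pseudocount of 0.5, and starts within 500 bases were joined. Exact permutation tests ran over the 252 assignments of 5 against 5 libraries, whose smallest p is 0.00794. TPM values were computed from transcript counts and annotated lengths. Programs were tested on simulated data.

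By rule, all 8 genes were named, with their transcripts of at least 10% of counts, the events past the limits and the pair of largest differences per gene, the nearest 2 genes by profile, and up to 3 genes per direction from each list by edgeR p. Alternatives were other scalings, no filter, other models, a replicate term, other pseudocounts, joins and limits, and leaving out each library. A further splicing event, outside this rule, is not reported here.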

Additional observations from a re-analysis of the deposited data

Results flagged for a closer look

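In 5 libraries of a group, a value was singled out where its gap to the nearest other library took a share of the group's range above Dixon's 95% critical value, which chance gives in about 1 of 20 groups. Of 52 groups of values examined, 4 had such a library.

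Bcl6 in Ag+Costim replicate 3, the largest library, was 5.60 CPM, against 1.902 to 2.93 CPM in the other Ag+Costim libraries. In the same library the log2 ratio of Prdm1 to Bcl6 was 0.97, against 2.84 to 2.92 in the others. Zeb2-202 held 31.2% of Zeb2 counts in Ag replicate 4 and 0% in the other Ag libraries. Bcl6-201 held 74.7% of Bcl6 counts in Ag replicate 3, against 92.98% to 100% in the other Ag libraries.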

How the results depend on the processing

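The count of genes called by edgeR stayed at 0 of 8 under 15 of 17 alternatives, and was 1 with DESeq2 and 7 with weighted voom. Under total counts 2 genes did not overlap between groups, against 0 with TMM factors. Fold changes of 7 genes kept their sign under all 17 alternatives, but their size moved. Without filter that of Runx1 (-0.39) was -0.04 and that of Prdm1 (0.66) was 1.21, and with total counts Runx3 (0.45) was 0.21 and Runx1 -0.74. Eomes (0.49) was 0.28, 0.79 and 0.27 without Ag replicates 1, 2 and 4. Prdm1 was 0.36 and 0.38 without Ag replicates 1 and 4, and without Ag replicate 4 Runx1 was -0.22 and Bcl6 (-1.08) was -0.70. That of Zeb2 (-0.02) was above 0 with no filter (0.76), with weighted voom (0.46), with a replicate block (0.66), and without single libraries (-0.27 to 0.92; 0.92 without Ag replicate 3, 0.02 without Ag replicate 4, 0.05 and 0.08 without Ag+Costim replicates 1 and 4), and the cause was not tested.

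Leaving out single libraries gave 0 to 1 genes with changed transcript usage (1, Zeb2, without Ag replicate 4). The share of all genes called in those fits is not given here. Differences of the log2 ratios were then 0.36 to 3.39 for Prdm1 to Bcl6 and 0.67 to 1.02 for Runx3 to Runx1. They were 0.13 to 0.43 for Tbx21 to Eomes and 0.48 to 1.58 for Zeb2 to Zeb1. P fell below 0.05 for the first without Ag replicate 5, for the second without Ag replicate 2 (0.97) or 5 and per kilobase (0.86), and for the last without Ag replicate 3. The difference in Runx1 distal start share (2.44 percentage points) was 0.248 to 4.09 without single libraries. The difference in Runx3 distal start share (-0.0513 percentage points) was -0.189 to 0.0127 without single libraries and 0.0257 with protein-coding transcripts only, and was above 0 without Ag replicate 1 (0.0127), Ag replicate 2 (0.00651) or Ag+Costim replicate 1 (0.00227). At a probability over 0.95, 0 splicing events of the 8 genes were left.

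Libraries of the same number did not deviate together, with correlations of -0.0997 to 0.113 over the 5 pairs, so the numbers were taken as names. With the replicate block edgeR called 0 of 8 genes, and the block changed no call of the ratios or start shares, where the smallest p that sign flips of 5 pairs allow is 0.0625.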
